A study of Danio rerio with 4 samples.

Results

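This report concerns 10 genes of the brain endothelium and its barrier, which were taken by name from the 31030 genes of the deposited count table. They are kdrl, cdh5, pecam1, tie1, tek, cldn5a, cldn5b, flt1, slc2a1a and pdgfrb, and all 10 were found. The question was whether vessel genes are lower in the atrn-/- brain in the way that red blood cell genes are. RNA of whole zebrafish brain at 4 months post-fertilization (mpf) was sequenced in 4 libraries, with 1 library each for wild-type male, male atrn-/-, wild-type female and female atrn-/-. The mutants are homozygous for a small CRISPR/Cas9 deletion in atrn (allele nju70 in the methods of the study), and no other allele or treatment is named for any group. The study used this 1 mutant line for sequencing, and its text does not settle whether each library holds 1 brain or several. Its results describe several brains taken from each group, while its methods describe a single brain. With 1 library per sex and genotype, differences within a sex have no replicate check.

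The endothelium lines blood vessels. In the brain its cells are sealed to each other by tight junctions and carry nutrients across by dedicated transporters, which together form the blood-brain barrier. Growth of these cells is steered by vascular endothelial growth factor (VEGF), read by the receptors kdrl and flt1, and by angiopoietins, read by tek, with the related receptor tie1 at its side. Pericytes, which wrap small vessels, carry the receptor pdgfrb and depend on the platelet-derived growth factor that endothelial cells release. Red blood cells travel inside these vessels, so a brain taken without perfusion brings both along.

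Total counts per library were between 8654693 (wild-type female) and 16254750 (mutant male). The targeted gene atrn had 808 counts in the wild-type male, 462 in the mutant male, 662 in the wild-type female and 423 in the mutant female, so it was lower in the mutant of each sex. Expression is given below as CPM, read counts scaled to a common library size, after TMM scaling, a method that corrects for library composition. Each log2 ratio of mutant over wild type has an exact 95% interval (Clopper-Pearson, on the counts), which covers counting error only and not the spread between fish. Of the 31030 genes, the 19943 that averaged 10 counts or more were tested, and all 10 vessel and barrier genes were among them, with single counts from 32 (pdgfrb, wild-type female) to 969 (kdrl, mutant female). Transcript lengths were not used here, so levels of different genes cannot be set against each other directly. Below, the most abundant genes of a list are those with the highest mean count. Ratios between genes are compared only across libraries. Other endothelial markers were also present in every library, with 108 to 196 counts for fli1a, 70 to 94 for egfl7 and 88 to 175 for clec14a. In RNA of whole brain, fewer endothelial cells and less RNA per cell cannot be told apart.

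The wild-type female stood apart in its skeletal muscle content. The summed level of 32 skeletal muscle genes was 6790 CPM in the wild-type female against 499 to 1071 CPM in the other libraries, and 20 genes of meninges and fibroblasts summed to 479 CPM there against 322 to 373 CPM. Skeletal muscle has vessels of its own, and the part of this tissue in the vessel gene values was not tested. The summed level of 19 neuron genes varied little, from 14523 to 15468 CPM. The wild-type male had the lowest sums of microglia and leukocyte genes (386 CPM against 493 to 539 CPM elsewhere) and of oligodendrocyte genes (10648 CPM against 12380 to 14296 CPM). Its sum of globin genes was the highest, at 2847 CPM against 1019 to 1987 CPM. The part of such differences in the male ratios of the vessel genes was not tested.

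**Figure D1:**
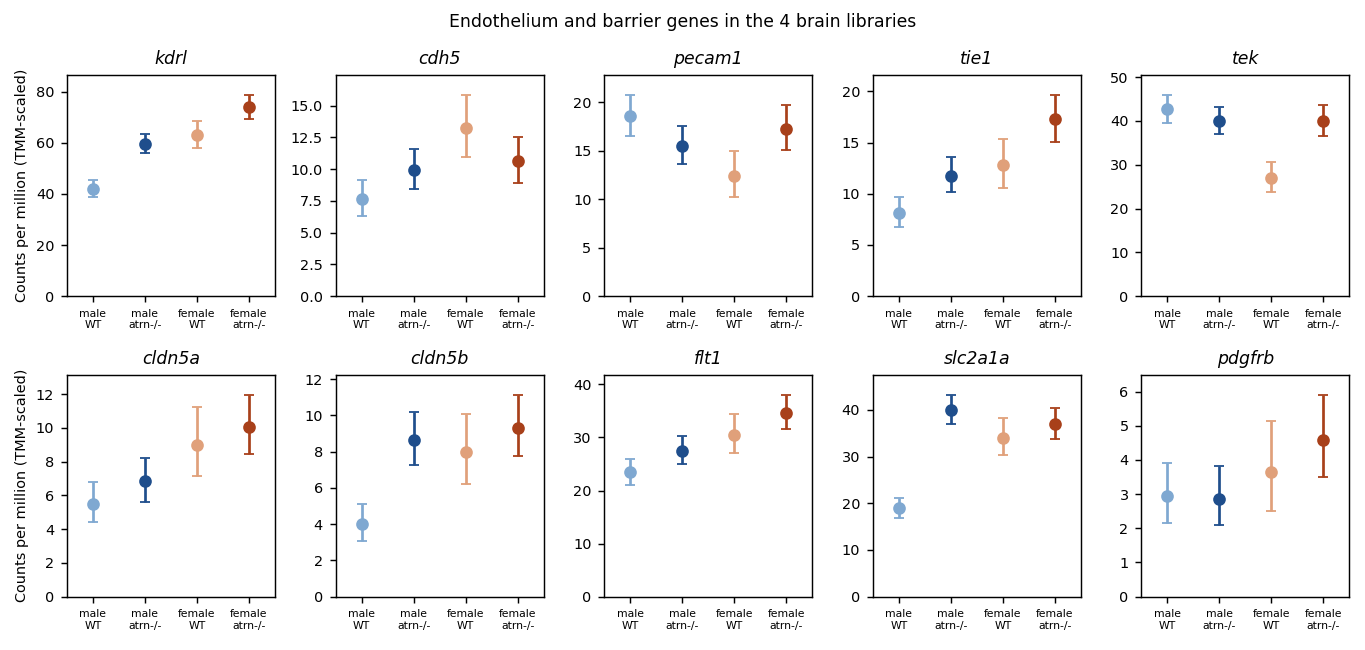
Level of each of the 10 genes in the 4 libraries, in TMM-scaled CPM (y axes start at 0), with WT for wild type and bars for the exact 95% Poisson interval of the counts. The wild-type male is the lowest library for 7 of the genes, while pecam1 and tek are highest there.

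The vessel and barrier genes were not lower in the mutants as a group. Their summed level was 174 CPM in the wild-type male and 223 CPM in the mutant male, and 214 CPM in the wild-type female and 255 CPM in the mutant female. The median log2 mutant/wild-type ratio was 0.34 among males and 0.23 among females, beside -0.0070 and 0.0013 over all 19943 genes. The ratio was above 0 for 7 of the 10 genes among males, for 9 among females and for 6 in both. Of all 19943 genes, it was above 0 for 9827, 10002 and 5566 in the same order. By counting error, 6 genes had a male interval wholly above 0, where 20.3% of all genes did, and 1 (pecam1) had one below 0, where 21.3% did. Among females, 4 genes had an interval above 0 and none below 0, where 18.4% of all genes lay on either side. Both sexes had intervals above 0 for kdrl and tie1, a class that held 6.6% of all genes. Both mutant libraries exceeded both wild types only for cldn5b and slc2a1a among the 10 genes, an order found in 18.6% of all genes.

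Over both sexes, 2 mutant and 2 wild-type libraries were compared with the quasi-likelihood test of edgeR, sex being a covariate, and Benjamini-Hochberg adjustment over all genes. None of the 10 genes was called at an adjusted p under 0.05, where 0.211% of all genes were called. At an unadjusted p under 0.05, 3 of the 10 (kdrl, tie1 and slc2a1a) were higher in the mutant, where 4.41% of all genes were. DESeq2's Wald test also called none of the 10 (0.466% of all genes) and gave 1 an unadjusted p under 0.05 (3.66% of all genes). A missed call with 2 libraries a genotype does not show that levels were equal. The fitted log2 fold change was above 0 for all 10 genes, with a median of 0.23. Each library was also left out in turn, in fits with no sex term, so that sex and genotype were not separated. The median then was 0.13 without the wild-type male, 0.49 without the mutant male, 0.52 without the wild-type female and 0.11 without the mutant female. Between 6 and 10 of the genes stayed above 0.

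The VEGF receptors kdrl and flt1 were at higher levels in the mutant library of each sex. kdrl, the main VEGF receptor of zebrafish endothelium, was at 42.1 CPM in the wild-type male, 59.7 CPM in the mutant male, 63.1 CPM in the wild-type female and 74.0 CPM in the mutant female. The mutant was above the wild type of its own sex in both pairs, but the mutant male was below the wild-type female. Its log2 ratio was 0.50 (95% interval 0.36 to 0.65) among males and 0.23 (95% interval 0.079 to 0.38) among females, and with both sexes fitted the log2 fold change was 0.37 (SE 0.128, edgeR adjusted p = 0.466). flt1, which binds VEGF and limits how much reaches kdrl, was at 23.4, 27.5, 30.6 and 34.7 CPM in the same order of libraries. Its levels followed the order of kdrl, and its log2 ratios were smaller, at 0.23 (95% interval 0.031 to 0.44) among males and 0.18 (95% interval -0.039 to 0.41) among females. The fold change over both sexes was 0.21 on the log2 scale (SE 0.144, edgeR adjusted p = 0.722).

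Both genes of the angiopoietin receptor pair were higher in the mutant among females, while among males only tie1 was. tie1, the partner receptor that modifies tek signalling, was at 8.14 CPM in the wild-type male, 11.7 CPM in the mutant male, 12.8 CPM in the wild-type female and 17.3 CPM in the mutant female. It was higher in the mutant within each sex, with log2 ratios of 0.52 (95% interval 0.20 to 0.86) and 0.43 (95% interval 0.10 to 0.77) and a log2 fold change over both sexes of 0.48 (SE 0.196, edgeR adjusted p = 0.534). tek, the receptor of angiopoietins, was at 42.6, 40.0, 27.0 and 39.9 CPM in the same order. Only the wild-type female was low, and the other 3 libraries lay close together. Its log2 ratio was therefore -0.092 (95% interval -0.25 to 0.065) among males and 0.56 (95% interval 0.34 to 0.79) among females, and over both sexes the log2 fold change was 0.22 (SE 0.179, edgeR adjusted p = 0.769).

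Of the 2 adhesion genes that mark endothelial junctions, neither moved the same way in both sexes. cdh5 encodes VE-cadherin, the cadherin of endothelial adherens junctions, and was at 7.64 CPM in the wild-type male, 9.94 CPM in the mutant male, 13.2 CPM in the wild-type female and 10.6 CPM in the mutant female. The wild-type female was the highest library. Its log2 ratio was 0.37 (95% interval 0.031 to 0.73) among males and -0.31 (95% interval -0.68 to 0.051) among females (over both sexes 0.034, SE 0.245, edgeR adjusted p = 0.982). pecam1, an adhesion molecule of endothelium that platelets and white cells also carry in mammals, was at 18.5, 15.5, 12.4 and 17.3 CPM in the same order. It was the reverse of cdh5, highest in the wild-type male and lowest in the wild-type female. The log2 ratio was -0.26 (95% interval -0.51 to -0.013) among males and 0.47 (95% interval 0.14 to 0.82) among females (over both sexes 0.089, SE 0.226, edgeR adjusted p = 0.942). RefSeq now names this gene pecam1a.

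The barrier genes held the largest ratios among the 10, and only among males. slc2a1a, a glucose transporter of the GLUT1 type through which the brain takes up sugar, was at 18.9 CPM in the wild-type male, 40.0 CPM in the mutant male, 34.1 CPM in the wild-type female and 36.9 CPM in the mutant female. The wild-type male alone was low, at 302 counts against 644 in the mutant male, and the other 3 libraries lay close together. The log2 ratio was 1.07 (95% interval 0.88 to 1.28) among males and 0.11 (95% interval -0.097 to 0.33) among females, and over both sexes the log2 fold change was 0.60 (SE 0.229, edgeR adjusted p = 0.506). Without the wild-type male, in a fit with no sex term, the fitted value became 0.17.

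cldn5b, a claudin that seals endothelial tight junctions, was at 4.01 CPM in the wild-type male, 8.63 CPM in the mutant male, 7.98 CPM in the wild-type female and 9.32 CPM in the mutant female. As with slc2a1a, the wild-type male was the low library. The log2 ratio was 1.08 (95% interval 0.67 to 1.56) among males and 0.22 (95% interval -0.21 to 0.67) among females. Over both sexes it was 0.66 (SE 0.290, edgeR adjusted p = 0.562), and 0.17 without the wild-type male in a fit with no sex term. Its paralog cldn5a, which in zebrafish is also used by the lining of the brain ventricles, was at 5.51, 6.83, 9.01 and 10.1 CPM in the same order of libraries. Its log2 ratios of 0.30 (95% interval -0.11 to 0.73) and 0.16 (95% interval -0.25 to 0.58) had intervals that included 0. With both sexes fitted the log2 fold change was 0.24 (SE 0.232, edgeR adjusted p = 0.815). How reads shared by the 2 paralogs were assigned is not given in the sources used here, so their separate values are uncertain to that extent.

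The pericyte receptor pdgfrb had the fewest counts, from 32 to 60. It was at 2.94, 2.86, 3.65 and 4.58 CPM in the wild-type male, mutant male, wild-type female and mutant female. All 4 intervals overlapped in the plot of levels by library, which does not show that levels were equal. Log2 ratios of mutant over wild type were -0.041 (95% interval -0.66 to 0.58) among males and 0.32 (95% interval -0.31 to 0.995) among females. A difference between genotypes was not detectable at this depth (over both sexes 0.14, SE 0.346, edgeR adjusted p = 0.940). Between the mutants, the female was above the male by a log2 ratio of 0.65 (95% interval 0.10 to 1.27).

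**Figure D2:**
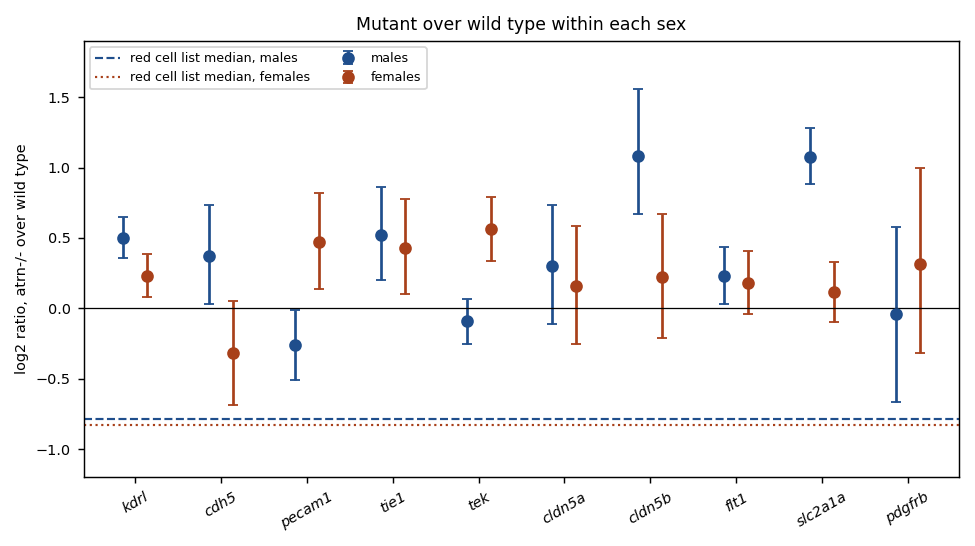
Log2 ratio of atrn-/- over wild type for each gene in males (blue) and females (red), with bars for the exact 95% counting interval and lines for the median of the 32 red cell genes in each sex (males dashed, females dotted). No bar of the 10 genes reaches the line of its own sex at -0.79 or -0.82, although bars of pecam1 and pdgfrb (males) and cdh5 (females) reach the medians of -0.50 and -0.56 of the red cell genes other than globins.

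The red cell genes, listed for comparison, were lower in the mutants. Of 41 listed genes in the table, 32 were tested, and their median log2 ratio was -0.79 among males and -0.82 among females. The ratio was below 0 in both sexes for 26 of the 32, as it was for 5677 of all 19943 genes. Both intervals were below 0 for 19, where 6.27% of all genes had that. None of the 10 vessel and barrier genes did. Both mutants were below both wild types for 20 of the 32 red cell genes and for none of the 10, with 19.2% in all genes. The reverse order held for 2 of the 32, the heme synthesis gene alad and the peroxiredoxin gene prdx2, named after their values were seen. The skeletal muscle genes were also lower in the mutants, with 28 of 32 below 0 in both sexes and both intervals below 0 for 19. By edgeR, which called 0.211% of all genes in either direction, 2 muscle genes were called lower. Among the 32 red cell genes edgeR called 9, each lower in the mutant. These were 5 globins (hbaa1, ba1, ba1l and, by their RefSeq names, hbaa2 and hbba2), the anion exchanger slc4a1a, the membrane skeleton genes epb41b and sptb, and the nucleotidase gene nt5c2l1. DESeq2 called 10. That red cell genes are low in these mutants was known when the comparison was set, so it is not independent evidence. The edgeR calls among the 32 became 7 without either of the male or female wild-type libraries and 0 without either mutant library, in fits with no sex term, and 0 with all 4 libraries and no sex term. A further 4 genes, the heme synthesis enzyme gene alas2, the ammonium channel gene rhag, the erythroid transcription factor gene gata1a and hdr, were past 2-fold lower in both sexes without being called (edgeR adjusted p from 0.0798 to 0.397).

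The most abundant red cell gene, the beta globin ba1, fell from 24543 to 8894 counts among males, which gave a log2 ratio of -1.48 (95% interval -1.51 to -1.44). Among females its counts were 10137 (wild type) and 7693 (mutant), which gave a log2 ratio of -0.98 (95% interval -1.02 to -0.93). Within each library, which needs no scaling, there were 16.4 globin counts for each count of the 10 vessel and barrier genes in the wild-type male and 4.62 in the mutant male. The same ratio was 9.32 in the wild-type female and 4.00 in the mutant female. For the other red cell genes it was 8.97 and 5.25 among males and 7.15 and 4.72 among females. These ratios also take in the higher summed level of the 10 genes in the mutants. Taken alone, the 27 tested red cell genes other than globins summed to 1558 CPM in the wild-type male and 1169 CPM in the mutant male. Among females their sums were 1528 CPM (wild type) and 1202 CPM (mutant). The lowest limit of any interval among the 10 genes was -0.66 among males (pdgfrb) and -0.68 among females (cdh5), both above the red cell medians. This rests in part on the globins. The 27 tested red cell genes other than globins had medians of -0.50 among males and -0.56 among females, values that lie inside the intervals of pecam1 and pdgfrb among males and of cdh5 among females. No replicate library was at hand to give the spread between fish.

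Ratios to kdrl inside a library, which need no scaling, differed between libraries by more than counting error for some genes. tie1 stood at 0.194, 0.197, 0.203 and 0.233 counts per count of kdrl in the wild-type male, mutant male, wild-type female and mutant female, and flt1 at 0.557, 0.461, 0.485 and 0.469. The intervals of these ratios overlapped among all 4 libraries for both genes, as they did for cdh5 and pdgfrb. Overlap does not show that a proportion was constant. tek, in contrast, had 1.01 counts per count of kdrl in the wild-type male (95% interval 0.910 to 1.13) and 0.670 in the mutant male, 0.429 in the wild-type female and 0.540 in the mutant female. The interval of the wild-type male did not overlap any of the other 3. pecam1 showed the same order of libraries, with 0.441 in the wild-type male (95% interval 0.383 to 0.506), 0.259 in the mutant male, 0.197 in the wild-type female and 0.233 in the mutant female. The glucose transporter slc2a1a was highest relative to kdrl in the mutant male, at 0.670 against 0.449 in the wild-type male.

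**Figure D3:**
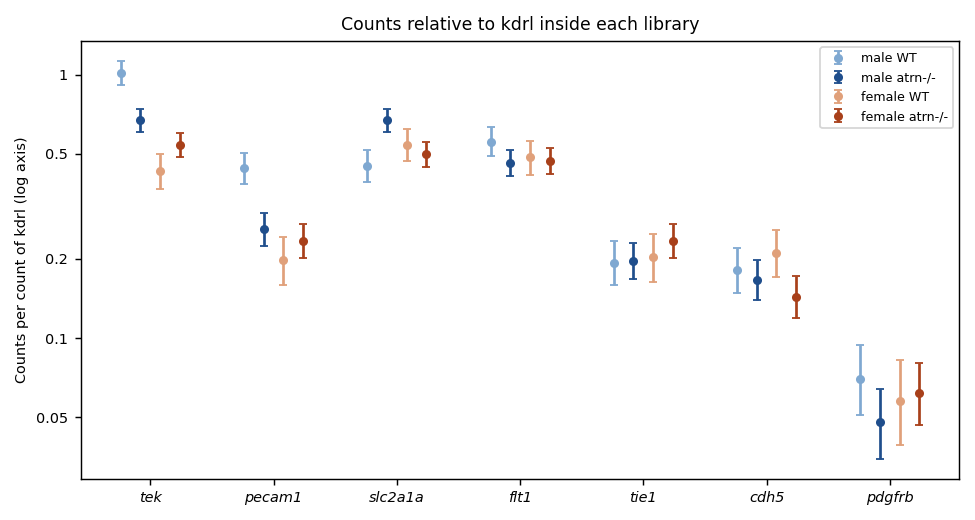
Counts of 7 of the genes divided by the counts of kdrl in the same library (log axis), with bars for the exact 95% interval of the ratio. tek and pecam1 are highest relative to kdrl in the wild-type male, at 1.01 and 0.441. The bars of tie1, flt1, cdh5 and pdgfrb overlap among all 4 libraries.

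Sex was the other factor across the 4 libraries. In the wild-type female over the wild-type male, the median log2 ratio of the 10 genes was 0.61, with 8 genes higher in the female and pecam1 and tek lower. In the mutants the median was 0.23. slc2a1a, for example, was higher in the female by 0.85 (95% interval 0.61 to 1.09) among wild types and at -0.12 (95% interval -0.29 to 0.056) among mutants. In the same edgeR model, with genotype as covariate, none of the 10 genes was called between the sexes, where 0.14% of all genes were, and 4 (kdrl, tie1, cldn5a and flt1) had an unadjusted p under 0.05, each higher in females. An unadjusted p under 0.05 between the sexes was found for 7.57% of all genes in either direction. DESeq2 called none (0.186% of all genes) and gave 1 an unadjusted p under 0.05 (2.62% of all genes). Of the 32 skeletal muscle genes, 11 were called higher in females, and their part in these values was not tested.

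Other genes linked to vessels and the barrier were read from lists. RNA of whole brain does not show which cells their counts came from, so the list medians are not measures of vessels alone. Of 36 tested genes of endothelial identity (transcription factors and surface proteins of endothelium), the median log2 ratio was 0.14 among males and 0.0054 among females, with 15 higher and 8 lower in both mutants. Intervals lay above 0 for 11 and below 0 for 3 among males, where 20.3% and 21.3% of all genes did. Among females they lay above 0 for 5 and below 0 for 6, where 18.4% did on either side. edgeR and DESeq2 called none, and 1 had an unadjusted p under 0.05 by edgeR, where 9.07% of all genes did in either direction. The most abundant were s1pr1, a receptor for the lipid sphingosine-1-phosphate that steadies vessels, robo4, a guidance receptor of endothelium, and tal1, a transcription factor shared by blood and endothelial precursors. The gene s1pr1 was at 1025 and 1321 counts in the wild-type male and mutant and at 695 and 987 among females, log2 ratios of 0.35 (95% interval 0.24 to 0.47) and -0.072 (95% interval -0.21 to 0.070). robo4 had ratios of 0.14 and -0.30, and tal1 of -0.11 and -0.0049. The lowest unadjusted p of this list belonged to erg, an ETS-family transcription factor of endothelium, which was chosen after its values were seen. It was at 121, 63, 47 and 44 counts in the wild-type male, mutant male, wild-type female and mutant female, log2 ratios of -0.93 (95% interval -1.42 to -0.50) and -0.65 (95% interval -1.30 to -0.049), with an edgeR adjusted p of 0.469. Both intervals were below 0 for 2 of the 36 genes, erg and gpr182, and above 0 for 2, mmrn2a and klf2a. Over all genes the shares were 6.27% and 6.6%. The log2 ratios of gpr182, also chosen after its values were seen, were -0.63 (95% interval -1.15 to -0.17) among males and -0.89 (95% interval -1.87 to -0.059) among females.

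Among 16 genes listed for the VEGF and angiopoietin systems, a list that also held the apelin gene apln, medians were 0.062 and -0.031. Neither tool called a gene. By edgeR 2 had an unadjusted p under 0.05, vegfab and vegfbb, both lower in the mutant, where 9.07% of all genes did in either direction. The ligand gene vegfab, chosen after its values were seen, had log2 ratios of -0.068 (95% interval -0.18 to 0.046) among males and -0.81 (95% interval -0.94 to -0.68) among females. Intervals of both sexes were below 0 for 2 genes, nrp1a and vegfbb, and above 0 for 0, where 6.27% and 6.6% of all genes had that. The most abundant of the list were the peptide ligand apln and the VEGF co-receptors nrp1a and nrp2b. apln had log2 ratios of 0.075 and -0.16, nrp1a of -0.086 and -0.23, and nrp2b of -0.35 and 0.13. A further VEGF receptor, kdr, chosen after its values were seen, was at 94, 148, 108 and 135 counts in the wild-type male, mutant male, wild-type female and mutant female, with log2 ratios of 0.63 (95% interval 0.26 to 1.03) and -0.25 (95% interval -0.63 to 0.12). The only gene past 2-fold in both sexes was the ligand gene vegfbb, with 30, 7, 12 and 2 counts in the wild-type male, mutant male, wild-type female and mutant female. Its log2 ratios were -1.80 (95% interval -3.54 to -0.89) and -2.33 (95% interval -6.36 to -0.996), with an edgeR adjusted p of 0.341 on few counts. Among 18 tight junction genes, medians were 0.056 and 0.11, and none was called by either tool. By edgeR 1 had an unadjusted p under 0.05 (oclna, lower in the mutant), beside the same 9.07% of all genes. The scaffold genes tjp1a and tjp1b, the most abundant, had log2 ratios of -0.075 and -0.28 among males and 0.17 for each among females, and cldn12 had 0.19 and 0.030. The junction protein gene oclna was at 49, 15, 39 and 27 counts in the same order of libraries, log2 ratios of -1.57 and -1.06 (edgeR adjusted p = 0.395).

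The 27 barrier transport genes split. Their medians were near 0 (0.075 among males and -0.065 among females). Intervals of both sexes were above 0 for 6 genes and below 0 for 3, where 6.6% and 6.27% of all genes had that. Counting intervals narrow as counts grow, and several genes of this list had high counts. The 6 were slc3a2a and slc3a2b, which encode the heavy chain of amino acid exchangers, their light chains slc7a5 and slc7a8a, the lipid transporter mfsd2ab and the glucose transporter slc2a1b, a paralog of slc2a1a. All but slc3a2b, which is among the 3 most abundant, were chosen after their values were seen. slc3a2b was at 3296 and 4793 counts in the wild-type male and mutant and at 1786 and 4783 among females. Its log2 ratios were 0.53 (95% interval 0.46 to 0.59) and 0.84 (95% interval 0.76 to 0.92), with a log2 fold change of 0.68 over both sexes (SE 0.115, edgeR adjusted p = 0.118). slc7a5, whose product carries large neutral amino acids across the barrier, was at 434, 673, 403 and 904 counts in the wild-type male, mutant male, wild-type female and mutant female, log2 ratios of 0.62 and 0.59 (edgeR adjusted p = 0.189). slc7a8a had ratios of 0.48 and 0.71, mfsd2ab of 0.39 and 0.59, slc3a2a of 0.44 and 0.32, and slc2a1b of 0.65 and 0.54. The same 6 were the genes with an unadjusted p under 0.05 in the direction of the mutant, where 4.41% of all genes were. edgeR called none of the 27, and DESeq2 called slc3a2b and slc7a8a, where it called 0.466% of all genes. Neurons and glia also use several of these transporters. The receptor genes lrp1 and lrp1aa, the other abundant genes of the list, were slightly lower in both mutants, with log2 ratios between -0.25 and -0.10. The third gene with both intervals below 0 was the taurine transporter gene slc6a6b, also chosen after its values were seen, at 359, 256, 241 and 209 counts in the wild-type male, mutant male, wild-type female and mutant female. Its log2 ratios were -0.50 (95% interval -0.74 to -0.26) and -0.78 (95% interval -1.06 to -0.51), with an edgeR adjusted p of 0.332, and it was the 1 gene of the list with an unadjusted p under 0.05 that was lower.

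Among 21 genes of the Wnt signal that induces the barrier, medians were -0.071 and 0.079. edgeR and DESeq2 called none, and none had an unadjusted p under 0.05 by either tool. Among the most abundant were ctnnb1 and zic1, which are also widely used outside vessels, with log2 ratios of 0.042 and 0.075 among males and 0.17 and 0.46 among females.

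The 19 pericyte and mural genes had medians of 0.24 and 0.075, and 16 were higher in the mutant male and 10 in the mutant female. Neither tool called any, with 4 (3 higher and 1 lower) at an unadjusted p under 0.05 by edgeR, where 9.07% of all genes were. notch3, a receptor of mural cells and the most abundant of the list, was at 914 and 1030 counts among males and 628 and 1077 among females, log2 ratios of 0.16 (95% interval 0.031 to 0.29) and 0.20 (95% interval 0.057 to 0.34). Of the other abundant genes, the potassium channel regulator abcc9 had ratios of 0.13 and -0.17, and the transcription factor ebf1a of 0.016 and 0.34. Of the others, 3 smooth muscle and pericyte genes, chosen after their values were seen, acta2, myh11a and rgs5a, were higher in both mutants, with ratios of 0.56, 0.57 and 0.32 among males and 0.70, 0.51 and 0.34 among females. Lower in both were rgs5b, the paralog of rgs5a, with ratios of -0.27 (95% interval -0.51 to -0.028) and -0.17 (95% interval -0.45 to 0.12), and desma, the intermediate filament gene of muscle, with -0.91 and -2.28. Both were likewise chosen after their values were seen. The 6 tested markers of brain lymphatic endothelium, the most abundant being prox1a, prox1b and stab2, had medians of 0.11 and 0.015, and neither tool called any. In edgeR and in DESeq2, none of the 6 had an unadjusted p under 0.05. prox1a and prox1b are also used by neurons and had ratios of -0.31 and -0.30 among males and 0.51 and 0.21 among females, while stab2 had 0.10 and -0.33.

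**Figure D4:**
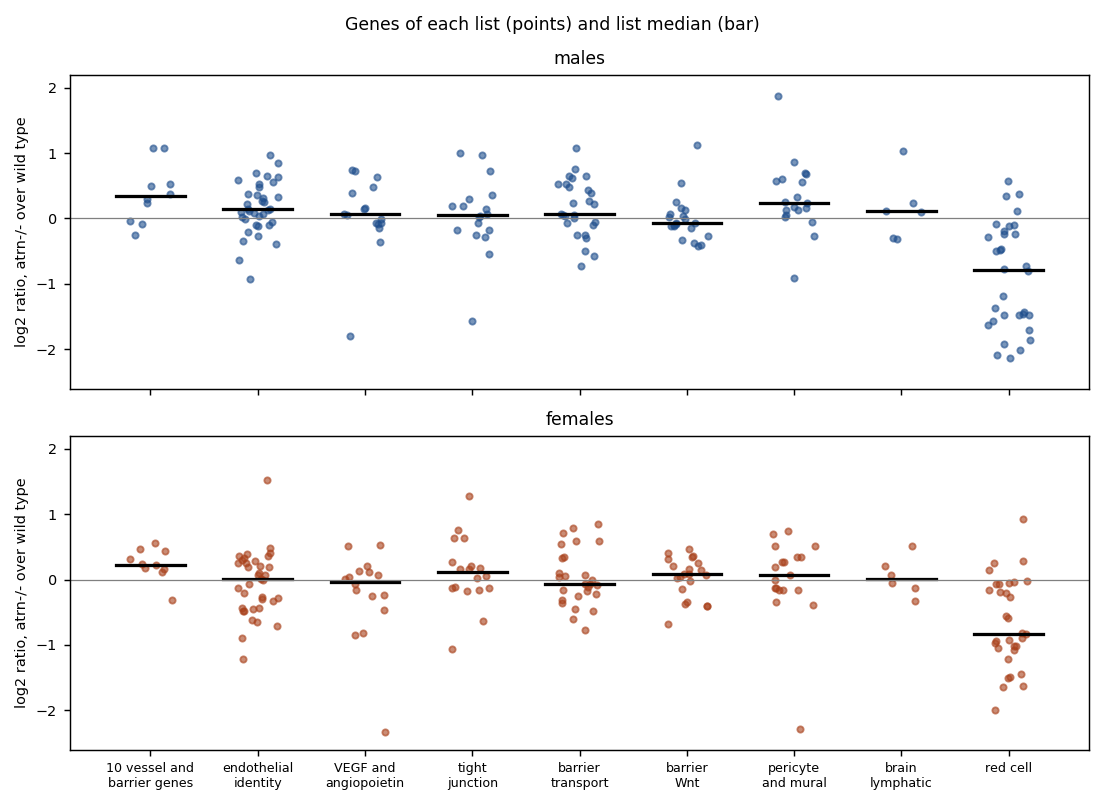
Log2 ratio of atrn-/- over wild type for the tested genes of each list (points), with a bar for the list median, in males (top) and females (bottom). The medians of the lists linked to vessels and the barrier, whose genes may also be expressed in other brain cells, lie between -0.071 and 0.34. Those of the red cell list lie at -0.79 and -0.82.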

How the data were processed

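Total RNA of zebrafish brain was made into Illumina TruSeq libraries by the authors. The values deposited are whole-number read counts for each gene, not normalized. The submitters' processing notes name HISAT2 and GRCz10, while the methods of the study name MapSplice. The counting program and its strand setting are not given in the sources used here. In RefSeq (assembly GRCz12tu), tie1 overlaps the antisense gene lnc.tie1 and cdh5 overlaps a lncRNA, and reads of such partners cannot be told apart without strand. No coordinates are given, since that assembly is not the build of the files. The study quantified RPKM and used EB-Seq, which were not repeated here.

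Groups were taken from the sample labels. Scaling used TMM (edgeR 4.0.16, R 4.3.3; prior count of 2 for log2 ratios, mean of at least 10 counts). The quasi-likelihood test on 4 libraries leaves 1 residual degree of freedom, which holds the difference between the sexes in the mutant ratio. Its p-values therefore do not measure the spread between fish of a group, for which there was no replicate library. The script was tested on simulated data. List symbols were matched by name or, where absent, by Entrez number and RefSeq name. The alternatives were total counts, DESeq2 1.42.0 size factors and its Wald test, prior counts of 0.5 and 5, a minimum mean of 50 counts or no filter, a threshold of 1.5-fold, dropping the covariate, and leaving out each library. Named genes are the 10 genes, and from each other list the 3 most abundant, those called and those past 2-fold the same way in both sexes, with exceptions stated where used. For the Wnt list, 1 gene that this rule names is not reported here. Lists of other cell types were described by sums, counts and medians. The genes and lists were chosen with earlier results of these data known. Python 3.11.15 with pandas 2.3.3 and scipy 1.17.1 was used.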

Additional observations from a re-analysis of the deposited data

Results flagged for a closer look

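Of the 10 vessel and barrier genes, 4 had opposite directions of mutant over wild type in the sexes, each sex being 1 pair of libraries, and the difference between the sexes was not tested. Log2 ratios of males and then females were 0.37 and -0.31 for cdh5, -0.26 and 0.47 for pecam1, -0.092 and 0.56 for tek, and -0.041 and 0.32 for pdgfrb. For pecam1 alone both counting intervals excluded 0.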

How the results depend on the processing

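Scaling by total counts or DESeq2 size factors left each within-sex ratio of the 10 genes inside its main interval. Prior counts of 0.5 or 5 did the same. Medians were also taken without a filter and under a minimum mean of 50 counts, which dropped pdgfrb. Over all these settings the medians stayed between 0.33 and 0.37 in the males and 0.20 and 0.23 in the females. The 42 genes called between genotypes became 5 without the sex term, 294 without a filter and 93 by DESeq2, and with 1 library left out 56 (wild-type male), 39 (mutant male), 27 (wild-type female) and 4 (mutant female). The 28 called between sexes became 1 without the genotype term and 132 without a filter, and in the same order 1, 1, 6 and 78. None of the 10 genes was called in any of these fits. With 3 libraries and no covariate, a lone library is assumed to vary like the other group, and sex and genotype are not separated. Directions over both sexes turned for cdh5 without the sex term (-0.0026) and with 1 library left out (-0.36 to 0.43, with -0.055 without the mutant female), and in the same way for pecam1 (-0.18 to 0.40, with -0.011), tek (-0.090 to 0.56), cldn5a (-0.096 to 0.61, with -0.072) and pdgfrb (-0.20 to 0.48). Between the sexes they turned for pecam1 (-0.44 to 0.020) and slc2a1a (-0.17 to 0.91). The cause was not tested. The labels carry no replicate numbers, so mutant and wild-type libraries were paired only by sex, through the sex term of the main test. Genes past 2-fold, 1022 in the males and 1562 in the females, became 2593 and 3923 without a filter, 297 and 483 under a minimum mean of 50 counts and 2903 and 3749 at 1.5-fold.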

Other observations

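Among 15525 other genes averaging 50 counts or more, the pattern most like the average of the 10 vessel and barrier genes over the 4 libraries was that of prmt3, LOC103911593, prph, hacl1 and nav1. Their root mean square differences from it were between 0.014 and 0.023 on the log2 scale. On this measure 356 genes lay within 0.1 of the average, so over 4 libraries the pattern was shared with many genes.

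Other cell types of the brain also differed between the libraries. All 15 tested radial glia genes were higher in the mutant female than in the wild-type female and 10 were higher in the mutant male, with median log2 ratios of 0.26 and 0.13. Of these, s100b, a calcium-binding protein of glia, had ratios of 0.31 (males) and 0.68 (females). The 18 genes of microglia and leukocytes had medians of 0.45 (males) and 0.022 (females). The 11 oligodendrocyte genes had medians of 0.37 and -0.040. edgeR called none of the genes in these lists, with 5, 1 and 2 at an unadjusted p under 0.05, where 9.07% of all genes were. DESeq2 called gfap and s100b among the radial glia genes and none of the other two lists, where it called 0.466% of all genes.

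The mural gene desma was at 32 and 16 counts in the males and 54 and 15 in the females. Desmin is also a protein of skeletal muscle, whose summed level was highest in the wild-type female, and their part in this value was not tested.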
